A study of Mus musculus with 17 samples.

Results

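The comparison described here is that of perinatal with adult GFP- medullary thymic epithelial cells of wild-type mice. Its samples were taken by their titles, and the comparison was chosen with earlier results of these data known. It rests on 5 of the 17 arrays of the series: 2 of perinatal cells (arrays 1 and 2) and 3 of adult cells (arrays 6, 7 and 8), which are all the GFP- arrays. The perinates were 3 days old by the sample labels (0 to 3 days by the series text) and the adults were 5 weeks old. All mice were C57BL/6 and of mixed sex, and all carried the Igrp-GFP reporter known as Adig, in which Aire control sequences drive GFP joined to Igrp, the protein that G6pc2 encodes. Sorted cells lacked CD45 and Ly51, carried much MHC class II and were parted by GFP, so the GFP- cells are those in which the Aire-driven reporter was not seen at the sort. The other 12 arrays hold GFP+ cells of the same gates. Perinatal and adult wild-type GFP+ cells (3 arrays each) serve below for a comparison of the age effect. Perinatal and adult Aire-knockout cells (3 arrays each) entered only the shared estimate of the spread, the choice of probe sets and the filter on dim genes. The sources do not say whether arrays of a group came from separate mice or pools, so p-values measure only how far these samples spread, and that spread may be technical.

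Medullary thymic epithelial cells show developing T cells the antigens of other organs. Aire, a transcriptional regulator active in the mature cells with high MHC class II, opens many tissue-restricted genes. Fezf2, a zinc finger transcription factor, serves a further set of them. GFP- cells of this gate can be cells that have not yet turned Aire on and cells that have passed the Aire stage. Cells past that stage include the mimetic cells, which take on programmes of skin keratinocytes, tuft, microfold, secretory, endocrine, ciliated or muscle cells. In the first days after birth the thymus grows quickly and its medulla is still being built.

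Each value below is a probe set's linear intensity after the authors' RMA processing, and differences are log2, perinate minus adult, ± the standard error from limma. Array medians lay between 149.8 and 155.6 for the 5 GFP- arrays. A gene passed if its adjusted p was under 0.05 over all 13842 genes tested. The 40th percentile of these arrays lay at 104.9 to 109.7, and intensities under it are near background, so the size of a fold against them rests on that background. The 2 perinatal arrays correlated with each other at r = 0.9859 and the adult arrays at 0.9889 to 0.9925, against 0.9375 to 0.9526 between the ages (log2 intensity across genes).

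The epithelial genes given next, which define the labelled cell type, were bright at both ages. Its markers Fezf2 and Cd80 were lower in perinates (log2 differences -2.72 and -2.19), and Krt8 and Krt18 did not pass. Of 14 cortical genes tested 7 were higher and 2 lower, as given below. Epcam, the epithelial adhesion molecule, measured 1967 and 2388 in perinates, against 2397, 2409 and 3119 in adults, and this difference did not pass (log2 difference -0.27 ± 0.16, adjusted p = 0.167). Keratin 5 (Krt5) and keratin 14 (Krt14), of basal and medullary epithelium, did not pass either. Krt5 measured 5300.1 and 5415 in perinates, against 4427, 4001 and 6551 in adults. Krt14 measured 3327 and 3414 in perinates, against 2091, 1733 and 2573 in adults (log2 difference 0.68 ± 0.27, adjusted p = 0.0514), without overlap. Krt14 was called higher under 7 of the 16 alternatives described in the closing section. Among these were the replicate block of the adult arrays (adjusted p = 0.048) and the fit without adult array 8 (adjusted p = 0.033). Aire itself was measurable in both groups of GFP- cells, at 270.0 and 351 in perinates, against 645, 930.1 and 495 in adults. Both perinatal arrays lay below all adult arrays, and Aire was lower in perinates (log2 difference -1.12 ± 0.23, adjusted p = 0.00077). G6pc2, whose product is part of the reporter protein, measured 254 and 429 in perinates, against 1452, 1725 and 1664 in adults (log2 difference -2.29 ± 0.16, adjusted p = 1.18e-08). The array does not tell the endogenous G6pc2 transcript from one of the reporter.

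Markers of other thymic cells were also measured, and their counts are to be read against the 24.2% of all genes tested that were lower in perinates and the 22.1% that were higher. Of the leukocyte genes, Ptprc, which encodes CD45, measured 81.7 and 83 in perinates, against 209, 141 and 185 in adults (log2 difference -1.10 ± 0.31, adjusted p = 0.00799), so it lay near background in perinates and somewhat above it in adults. Of 10 thymocyte genes tested 3 were lower in perinates and 0 higher, and the summed intensity of the 14 measured was 1308 to 1530 in perinates and 1481 to 2727 in adults, with Cd3d, Rag2, Ptcra and Dntt below the 40th percentile on all 5 arrays. Cd3e, of the T cell receptor complex, measured 235 and 161 in perinates, against 402, 194 and 202 in adults and did not pass. Of 7 B cell genes tested 3 were lower and 0 higher (summed intensity of the 9 measured 944.2 to 964.8 in perinates, 1800.0 to 2220.0 in adults), while Cd79a, Ms4a1 and Pax5 were below that percentile throughout. Of 15 dendritic cell and macrophage genes 8 were lower and 1 higher, with sums over 19 genes of 2368 to 2881 in perinates and 6687 to 8202 in adults. Lyz2 made up most of that gap, and Itgax, Adgre1, Xcr1, Clec9a, Siglech and Fcgr1 were below the 40th percentile on every array. Endothelial genes had 5 of 9 lower and 0 higher (sums over 11 genes of 1146 to 1274 in perinates and 1534 to 1951 in adults, with Kdr and Emcn below the percentile). Fibroblast genes had 2 of 10 higher and 1 lower (sums over 13 genes of 4306 to 4379 in perinates and 2634 to 2930 in adults), and Lum, Twist1, Twist2, Dpt, Mfap5 and Pi16 were below the percentile. Of 3 erythroid genes tested 1 was lower, with sums over 7 genes of 567.1 to 571.8 in perinates and 567.7 to 736.4 in adults. The shares for thymocyte, fibroblast and erythroid genes were near those of all genes. The part of these cells in the results that follow was not tested, and in RNA of a sorted population fewer cells of a type and less RNA per cell cannot be told apart.

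Age separated the GFP- cells broadly. Of 13842 genes tested 6412 (46.3%) differed between perinates and adults, 3065 (22.1%) higher in perinates and 3347 (24.2%) lower. At least 2-fold differences were fewer and leaned to lower genes, with 707 genes (5.11%) higher and 1192 (8.61%) lower. The arrays of the ages did not overlap for 8374 genes (60.5%), and 6277 (45.3%) both passed and did not overlap. The median log2 difference over all genes tested was 0.02. Shares and medians of the gene lists are to be read against these values. Of the genes that differed, 157 were below the 40th percentile on all 5 GFP- arrays and were tested because other arrays were brighter. Their calls rest on levels near background, and among the list members these were Calb1, Cel, Cntn1, Cyp1a2, Dnmt3l, Fabp2, Fgb, Gins1, Tdo2, Ttk and Zp3.

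The 15 largest differences with lower levels in perinates are given first. Fabp9, a fatty acid-binding protein of sperm, measured 126 and 57 in perinates, against 3224, 3221 and 2448 in adults. The adult arrays held it among their bright signals, while perinatal array 2 was at background. The log2 difference of -5.12 ± 0.49 (adjusted p = 3.23e-07) was the largest of all genes that passed without overlap. Lyz2, a lysozyme of macrophages and of some epithelia, measured 199 and 196 in perinates, against 4502, 4659 and 3941 in adults. The arrays of each age lay close together and far from the other age (log2 difference -4.46 ± 0.11, adjusted p = 9.04e-14). Aoc1, an amine oxidase of the gut that degrades histamine, measured 216 and 209 in perinates, against 4386, 5328 and 3771 in adults, again with tight groups (log2 difference -4.39 ± 0.13, adjusted p = 5.85e-13). Ccl11, the chemokine eotaxin, measured 254 and 168 in perinates, against 3863, 2042 and 4714 in adults (log2 difference -4.01 ± 0.34, adjusted p = 9.87e-08). Both perinatal arrays were far below the adults, which themselves were spread, array 7 being the lowest. The deiodinase gene Dio1, which activates thyroid hormone in liver and kidney, measured 105 and 108 in perinates, against 1368, 1687 and 1723 in adults (log2 difference -3.89 ± 0.20, adjusted p = 4.25e-10). Serpina7, which encodes the thyroxine-binding globulin of plasma, measured 187 and 111 in perinates, against 2080.3, 2275 and 1904 in adults (log2 difference -3.85 ± 0.33, adjusted p = 1.32e-07). These perinatal levels of Dio1 and Serpina7 lay at or little above background. The kallikrein genes Klk1b8, Klk1b16 and the pseudogene Klk1b7-ps, known from salivary glands, differed by -3.85 ± 0.20, -3.98 ± 0.51 and -4.77 ± 0.44, lower in perinates. They are near-identical copies whose probes may share signal, so the single members are uncertain. Adgrg7, Tfap2b and Anxa10 were below the 40th percentile on both perinatal arrays and between 490.3 and 1323 in adults. Ifi205, an interferon-activated gene, measured 198 and 55.6 in perinates, against 2124, 1564 and 1023 in adults (log2 difference -3.84 ± 0.40, adjusted p = 9.23e-07), and the perinatal arrays differed from each other by more than the adults did. Lyz1 and the uncharacterised 2210407C18Rik complete this set, at log2 differences of -3.81 ± 0.19 and -3.86 ± 0.21.

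**Figure D1:**
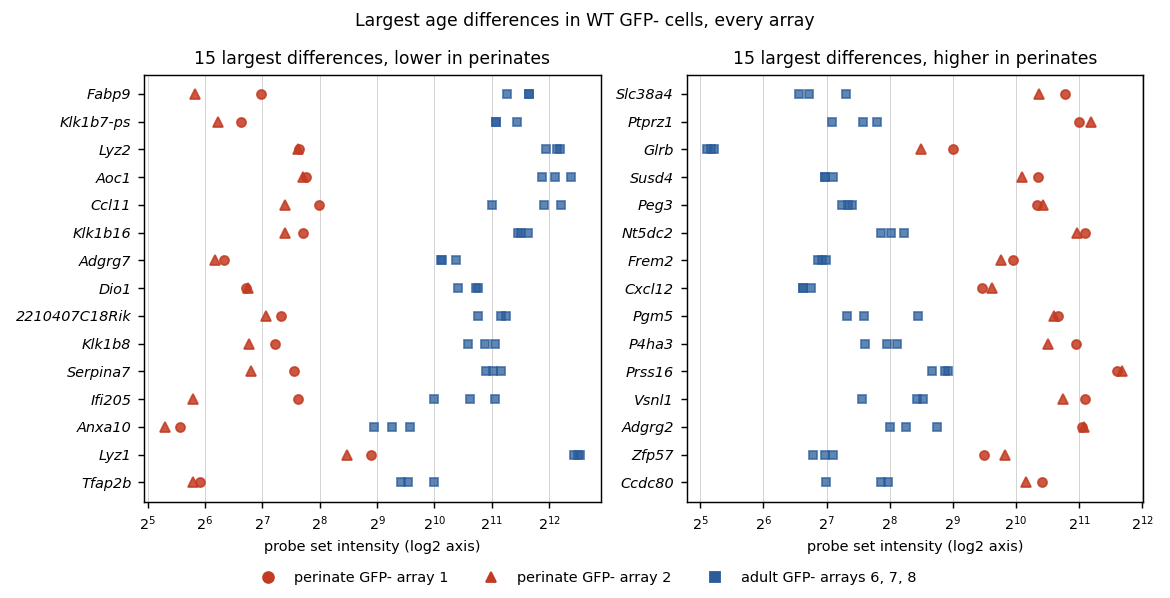
Probe set intensity (log2 axis) of the 15 genes with the largest lower level in perinates (left) and the 15 with the largest higher level in perinates (right), among genes that passed and whose arrays did not overlap. Each point is 1 WT GFP- array, with perinatal arrays 1 and 2 as red circles and triangles and adult arrays 6, 7 and 8 as blue squares. Perinatal Lyz2 values of 199 and 196 stand against adult values of 4659 at most, and perinatal array 1 lies above array 2 for Fabp9 and Ifi205.

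The lysozyme pair belongs together by sequence, which bears on how far their signals can be told apart. Lyz1, the lysozyme of Paneth cells, measured 473 and 354 in perinates, against 5499, 5937 and 5801 in adults (log2 difference -3.81 ± 0.19, adjusted p = 3.24e-10). Lyz1 and Lyz2 are neighbours and near-identical copies, so their probe sets may share signal and the values of each are uncertain. Their starts lie 10.6 kb apart on chromosome 10, both on the minus strand, and their promoters are shown because these are among the largest age differences and the copies resemble each other beyond the coding part. The 250 bases before each start, from RefSeq on GRCm38.p6, are given 5′ to 3′ in lower case:
Lyz2 (chr10:117282273-117282522): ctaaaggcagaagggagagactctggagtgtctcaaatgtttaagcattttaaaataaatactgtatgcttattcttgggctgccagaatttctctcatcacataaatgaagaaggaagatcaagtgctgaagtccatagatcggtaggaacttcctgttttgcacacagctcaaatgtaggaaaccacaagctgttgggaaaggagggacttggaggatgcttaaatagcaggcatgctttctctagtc
Lyz1 (chr10:117292869-117293118): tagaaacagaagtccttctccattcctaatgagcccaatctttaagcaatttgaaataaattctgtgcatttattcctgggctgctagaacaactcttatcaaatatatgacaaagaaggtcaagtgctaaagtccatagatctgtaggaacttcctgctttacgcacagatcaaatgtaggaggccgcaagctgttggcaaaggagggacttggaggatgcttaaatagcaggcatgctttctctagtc
In an alignment of these windows 200 of 248 aligned bases (80.6%) were identical. Nothing was measured on these promoters here.

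Among 17 antimicrobial and inflammatory genes tested, which include both lysozymes, 12 were lower in perinates and 0 higher, with a median of -0.95. Nos2, the inducible nitric oxide synthase, measured 208 and 158 in perinates, against 2222, 2428 and 1572 in adults. Each perinatal array was far below each adult array (log2 difference -3.49 ± 0.21, adjusted p = 2.16e-09). Reg3b, a secreted lectin that acts on bacteria, measured 46.4 and 34.9 in perinates, against 347, 409 and 465 in adults and was below the 40th percentile on both perinatal arrays (log2 difference -3.33 ± 0.31, adjusted p = 2.92e-07). Of the 11 tested genes of the Ly6 family, small surface or secreted proteins with a shared fold, 7 were lower and 1 higher, with a median of -1.27. Ly6i measured 173 and 81.9 in perinates, against 713, 1195 and 932 in adults (log2 difference -2.96 ± 0.28, adjusted p = 3.16e-07), and perinatal array 2 was at background. Lypd3, a Ly6-domain protein of stratified epithelia, measured 786 and 352 in perinates, against 2619.7, 1778 and 2053 in adults (log2 difference -2.01 ± 0.27, adjusted p = 1.36e-05). Array 2 was also the lower of the perinatal pair for Lypd3. Slurp1, a secreted member from skin, measured 194 and 203 in perinates, against 685, 386 and 425 in adults (log2 difference -1.28 ± 0.22, adjusted p = 0.000127). Ly6h was the member with higher levels, at 113 and 114 in perinates, against 81.9, 86.4 and 81.6 in adults (log2 difference 0.45 ± 0.12, adjusted p = 0.00478). Members of this family lie close together in the genome and resemble one another, so probes may share signal between them. Without perinatal array 2, 4 genes of the family were called lower in place of 7.

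Genes of the mimetic cell types were mostly lower in perinates. Of 22 tuft cell genes tested 19 were lower in perinates and 0 higher, with a median of -1.48. Of 12 microfold cell genes 11 were lower and 0 higher (median -1.46). Of 23 genes of cornified skin 18 were lower and 0 higher (median -1.43), and of 24 secretory and goblet genes 19 were lower and 0 higher (median -1.31). The lists hold known markers of these cells and were chosen with earlier results of these data known. Some genes stand in several lists, such as Ccl20 and Spib among those given below.

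**Figure D2:**
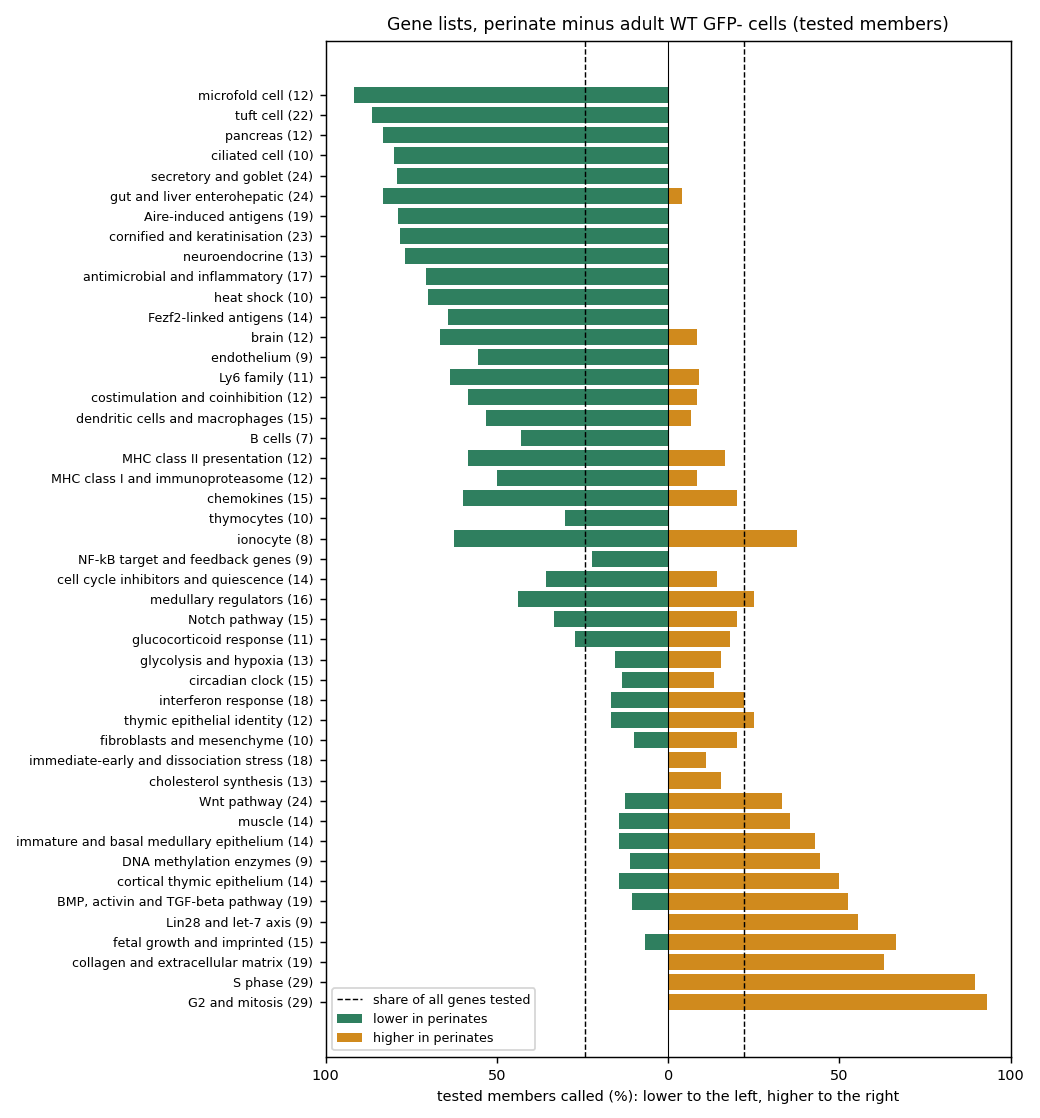
Share of each list's tested members that passed with a lower level in perinates (green bars, to the left) or a higher level (orange bars, to the right), for the 46 lists with at least 5 tested members, whose number is given in parentheses. The dashed lines are the shares over all genes tested, 24.2% lower and 22.1% higher. Microfold (11 of 12) and tuft cell genes (19 of 22) stand at the lower end, and the cell cycle lists (26 of 29 and 27 of 29) at the higher end.

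Tuft cells are chemosensory epithelial cells that use a taste-like signalling chain and make eicosanoids. Trpm5, the cation channel at the end of that chain, measured 408 and 201 in perinates, against 1506, 2152 and 2065 in adults. The groups did not overlap, and perinatal array 1 stood above array 2 (log2 difference -2.72 ± 0.24, adjusted p = 1.84e-07). Gng13, a G protein subunit of taste signalling, measured 244 and 180.4 in perinates, against 730.1, 736 and 925 in adults (log2 difference -1.92 ± 0.15, adjusted p = 4.62e-08). Ltc4s, which makes cysteinyl leukotrienes, measured 117 and 119 in perinates, against 492, 472 and 564 in adults and was close to background in perinates (log2 difference -2.11 ± 0.14, adjusted p = 7.23e-09). Il17rb, a receptor subunit through which epithelial interleukins act, measured 192 and 124 in perinates, against 530.3, 655 and 699 in adults (log2 difference -2.02 ± 0.17, adjusted p = 1.04e-07). These genes were dim or moderate in perinates and moderate in adults. Rgs13, a regulator of G protein signalling typical of tuft cells, was less even, at 375 and 114 in perinates, against 1745, 2194 and 2113 in adults (log2 difference -3.28 ± 0.62, adjusted p = 0.000372). Gnat3, the taste G protein alpha subunit gustducin, did not pass. It measured 1079 and 422 in perinates, against 701, 1000.3 and 1345 in adults, with perinatal array 1 inside the adult range and array 2 below it.

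Cornified keratinocytes seal the outer skin and resemble the end stage of medullary epithelium seen in Hassall's corpuscles. Krt10, a keratin of the suprabasal skin layers, measured 315 and 234 in perinates, against 2509, 2127 and 2431 in adults. All adult arrays stood far above the perinatal ones (log2 difference -3.11 ± 0.22, adjusted p = 1.27e-08). Krt77 measured 256 and 211 in perinates, against 1526, 1079.6 and 1648 in adults and Krt1, the partner of Krt10, measured 186 and 106 in perinates, against 625, 572 and 808 in adults. Their log2 differences were -2.59 ± 0.24 (adjusted p = 2.26e-07) and -2.24 ± 0.23 (adjusted p = 6.58e-07), and neither gene's arrays overlapped. Klk7, a protease that loosens cornified cells, measured 284 and 298 in perinates, against 846, 775 and 740.1 in adults (log2 difference -1.43 ± 0.14, adjusted p = 5.12e-07). The keratinocyte cytochrome gene Cyp2b19 measured 488 and 308 in perinates, against 2834, 2036 and 1918 in adults (log2 difference -2.52 ± 0.30, adjusted p = 3.7e-06).

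Microfold cells take up luminal antigen over lymphoid follicles. Ccl20, the chemokine by which they draw CCR6-bearing lymphocytes, measured 168 and 143 in perinates, against 1145, 1416 and 1718 in adults. Perinatal levels were little above background (log2 difference -3.18 ± 0.37, adjusted p = 3.01e-06). Ccl9, a chemokine of the follicle epithelium, measured 129 and 109.8 in perinates, against 658, 612 and 593 in adults (log2 difference -2.38 ± 0.28, adjusted p = 3.62e-06). Spib, the transcription factor that microfold cells need, was well expressed at both ages and measured 1009.7 and 1282 in perinates, against 2207, 2957 and 2868 in adults (log2 difference -1.22 ± 0.16, adjusted p = 1.05e-05). No perinatal array overlapped the adults for these genes. Tnfrsf11b, the decoy receptor for RANK ligand, measured 521 and 321 in perinates, against 1373, 976 and 896 in adults (log2 difference -1.38 ± 0.18, adjusted p = 1.27e-05). Gp2, the bacterial uptake receptor on microfold cells, measured 524 and 111 in perinates, against 2351, 2536 and 2037 in adults (log2 difference -3.25 ± 0.56, adjusted p = 0.000154). Both perinatal arrays lay below the adults for it, array 2 at background and array 1 clearly above.

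Among the secretory genes, Pigr, which carries polymeric antibodies across epithelia, measured 131 and 105 in perinates, against 767, 1307 and 954 in adults (log2 difference -3.07 ± 0.29, adjusted p = 3.1e-07). Clca1, a secreted goblet cell protein, measured 528 and 198 in perinates, against 2431, 2963 and 3843 in adults, with array 1 again above array 2 (log2 difference -3.23 ± 0.50, adjusted p = 5.55e-05). Tff2, a trefoil peptide of mucus, was dim at both ages and measured 115 and 105 in perinates, against 264, 260.1 and 296 in adults, a smaller and tighter difference (log2 difference -1.32 ± 0.12, adjusted p = 1.86e-07). The airway and mucus genes named next were uneven between the perinatal arrays. Bpifa1, an airway surface protein, measured 3329.9 and 779 in perinates, against 6376, 4857 and 5908 in adults (log2 difference -1.82 ± 0.49, adjusted p = 0.00598), and it was not called without perinatal array 2 (log2 difference -0.77, adjusted p = 0.215). The secreted protein gene Mucl2, which Aire induces, did not pass and measured 4065 and 287 in perinates, against 2954, 3923 and 2487 in adults. For Mucl2 perinatal array 1 lay above every adult array and array 2 below every one, so that the log2 difference was -3.42 without array 1 and 0.41 without array 2.

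Gut and liver genes were lower in 20 of 24 tested and higher in 1, with a median of -1.61. Apoa4 and Apoc3, lipoprotein components of gut and liver, measured 224 and 194 in perinates, against 1111, 1446 and 1362 in adults and 167 and 119.6 in perinates, against 1124, 1495 and 985 in adults, in that order. Neither gene's groups overlapped, and the log2 differences were -2.64 ± 0.18 (adjusted p = 1.01e-08) and -3.06 ± 0.24 (adjusted p = 4.14e-08). Cdhr5, a cadherin of the intestinal brush border, measured 204 and 169 in perinates, against 1235, 1877 and 1473 in adults (log2 difference -3.02 ± 0.16, adjusted p = 6.89e-10). Ttr, the thyroxine carrier transthyretin, measured 73 and 71.3 in perinates, against 465, 423 and 372 in adults, at background in perinates (log2 difference -2.54 ± 0.21, adjusted p = 6.33e-08). Fgg, the fibrinogen gamma chain, ran the other way. It measured 159 and 119 in perinates, against 45.6, 49.2 and 38 in adults and was at background in adults (log2 difference 1.64 ± 0.22, adjusted p = 1.47e-05).

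Pancreatic genes were lower in 10 of 12 tested and higher in 0 (median -1.2). They span both parts of the gland: Ctrb1, a digestive protease precursor, measured 382 and 264 in perinates, against 1286, 1374 and 1077 in adults (log2 difference -1.96 ± 0.19, adjusted p = 3.12e-07), Clps, the cofactor of pancreatic lipase, measured 505 and 271 in perinates, against 1148, 1632 and 991 in adults (log2 difference -1.73 ± 0.25, adjusted p = 2.39e-05), and Iapp, the islet peptide amylin, measured 471 and 217 in perinates, against 923, 793 and 962 in adults (log2 difference -1.47 ± 0.23, adjusted p = 5.1e-05). Groups did not overlap for any of these. The lower pancreatic genes also include G6pc2, given above, whose signal may hold that of the reporter transcript. Of 13 neuroendocrine genes 10 were lower and 0 higher (median -0.94). Chga, the granule protein chromogranin A, measured 188 and 218 in perinates, against 956, 1292 and 967 in adults (log2 difference -2.39 ± 0.18, adjusted p = 3.33e-08). Resp18, an endocrine secretory protein, was below the 40th percentile on both perinatal arrays and measured 58.8 and 48.6 in perinates, against 708, 644 and 553 in adults (log2 difference -3.56 ± 0.20, adjusted p = 9.93e-10). Both granule genes were separated widely by age. Gal, the neuropeptide galanin, measured 137 and 117 in perinates, against 291, 301 and 253 in adults (log2 difference -1.15 ± 0.15, adjusted p = 1.18e-05).

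Of 12 brain genes tested 8 were lower and 1 higher. Syt1, the calcium sensor of synaptic vesicles, measured 754 and 622 in perinates, against 4026, 4959 and 3819 in adults, one of the brighter signals of this kind (log2 difference -2.63 ± 0.14, adjusted p = 6.27e-10). Nefh, a neurofilament subunit, measured 190.5 and 227 in perinates, against 514, 522 and 506 in adults (log2 difference -1.31 ± 0.13, adjusted p = 5.56e-07). Stmn2, a microtubule regulator of growing neurites, went the other way and measured 432 and 479 in perinates, against 62.5, 71.4 and 104 in adults (log2 difference 2.55 ± 0.26, adjusted p = 5.9e-07). The adult arrays held Stmn2 below the 40th percentile. Of 10 ciliated cell genes 8 were lower and 0 higher (median -0.64). Dnah9, an axonemal dynein chain, measured 117 and 113 in perinates, against 277, 351 and 329.7 in adults (log2 difference -1.47 ± 0.16, adjusted p = 1.48e-06), and Mcidas, a regulator that starts multiciliated cell formation, measured 244 and 256 in perinates, against 351, 531 and 599 in adults (log2 difference -0.95 ± 0.17, adjusted p = 0.000236). Most of these ciliary signals were close to background, and with a filter at the 60th percentile 3 ciliated cell genes were called in place of 8. Of these 8, Ccdc39 passed the filter on dim genes only through adult GFP- arrays 7 and 8 (117 and 112), where it was high. Of 14 testis and germ cell genes measured 3 passed the filter on dim genes, and all 3 were lower. Besides Fabp9, given above, these were Zp3, of the egg coat, at 71 and 67.4 in perinates, against 101, 108 and 101 in adults, and the sperm protamine gene Prm1, at 98.1 and 115 in perinates, against 152, 128 and 156 in adults. Their log2 differences were -0.57 ± 0.11 (adjusted p = 0.000475) and -0.45 ± 0.13 (adjusted p = 0.0106), with Zp3 below the 40th percentile on all 5 GFP- arrays (it passed the filter through GFP+ arrays), and that of Prm1 lost its call without perinatal array 1 (log2 difference -0.33, adjusted p = 0.122).

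Ionocytes are the acid- and salt-handling cells of epithelia, and all 8 of their genes tested passed, 5 lower and 3 higher (median -0.52). Cftr, the chloride channel, measured 120.2 and 66.4 in perinates, against 250.3, 320.0 and 254 in adults (log2 difference -1.61 ± 0.24, adjusted p = 3.23e-05). Foxi1, the ionocyte transcription factor, measured 104 and 121 in perinates, against 169.5, 199.7 and 165 in adults (log2 difference -0.66 ± 0.15, adjusted p = 0.00154). The sodium, potassium and chloride cotransporter gene Slc12a2 measured 1327 and 797 in perinates, against 476, 489 and 624 in adults, higher on both perinatal arrays (log2 difference 0.97 ± 0.18, adjusted p = 0.00033). Without perinatal array 2, 1 ionocyte gene was called higher in place of 3. Of 14 muscle genes 5 were higher, 2 lower and 7 did not pass (median 0.21). Myl1, a myosin light chain of fast muscle, measured 289 and 234 in perinates, against 66.8, 88.3 and 107 in adults (log2 difference 1.60 ± 0.24, adjusted p = 4.44e-05). The cardiac and fetal skeletal actin gene Actc1 measured 659 and 524 in perinates, against 320.4, 286 and 261 in adults (log2 difference 1.03 ± 0.15, adjusted p = 3.31e-05). Chrng, the fetal subunit of the muscle acetylcholine receptor, measured 248 and 148 in perinates, against 109, 98.8 and 90.6 in adults and was below the 40th percentile in adults (log2 difference 0.95 ± 0.19, adjusted p = 0.000538). Des, the muscle intermediate filament desmin, measured 253 and 285 in perinates, against 492, 571 and 546 in adults (adjusted p = 0.000111).

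The perinatal arrays differed in how far these lists were reduced. Relative to the adult mean, the median log2 level of the tuft cell genes was -1.25 on perinatal array 1 and -1.75 on array 2, against -0.24 to 0.16 on the adult arrays. For the microfold genes it was -1.21 and -1.67 on the perinatal arrays, against -0.04 to 0.05 in adults. The secretory genes stood at -1.07 and -1.57 in perinates, against -0.04 to 0.01 in adults, and the cornified genes at -1.17 and -1.6, against -0.22 to 0.17. In each of these lists perinatal array 1 was the nearer to the adults, and both arrays lay outside the adult range. The cell cycle lists showed no such split, at 1.02 and 0.99 in perinates for S phase genes and 1.37 and 1.23 for mitotic genes.

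**Figure D3:**
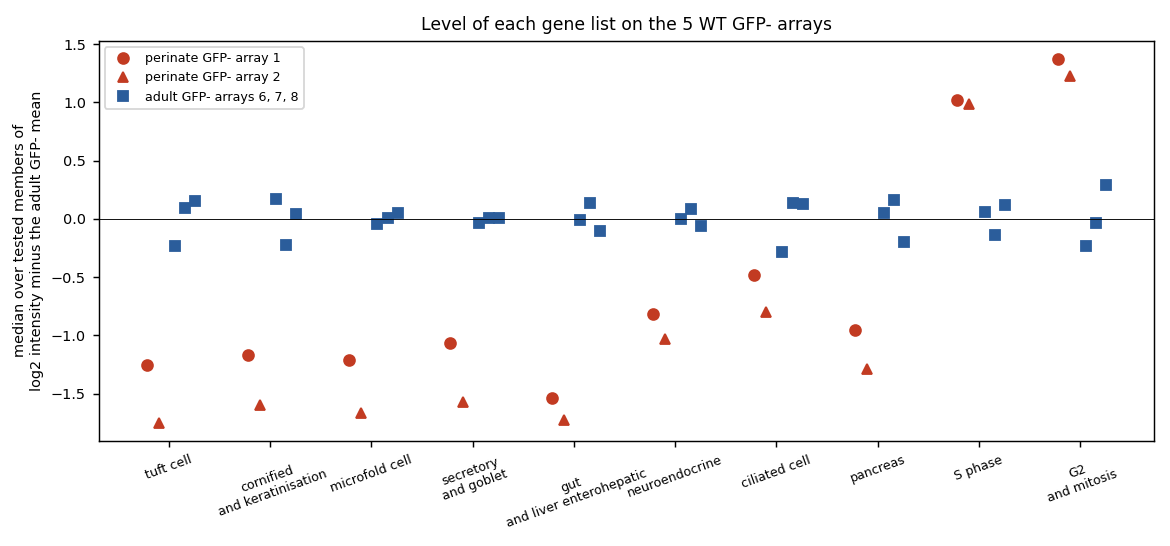
Level of 10 gene lists on each WT GFP- array, as the median over the list's tested members of the log2 intensity minus that gene's adult mean. Red circles and triangles are perinatal arrays 1 and 2 and blue squares are adult arrays 6, 7 and 8. Both perinatal arrays lie below the adults in the 8 mimetic and tissue lists shown and above them in the 2 cell cycle lists. Array 2 (tuft cell genes, -1.75) lies below array 1 (-1.25). The muscle and ionocyte lists, with members both higher and lower, are not shown.

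Regulators of the medullary programme were divided. Of 16 tested, 4 were higher in perinates (2 without perinatal array 1), 7 lower and 5 did not pass. Fezf2 measured 471 and 464 in perinates, against 2974, 3272 and 2971 in adults. Perinatal and adult arrays were each tight and far apart (log2 difference -2.72 ± 0.18, adjusted p = 5.31e-09). Irf4, a transcription factor downstream of NF-kB, measured 102 and 99 in perinates, against 734, 483 and 416 in adults, at background in perinates (log2 difference -2.39 ± 0.22, adjusted p = 1.81e-07). Tnfrsf11a, the receptor RANK through which medullary cells mature, measured 496 and 595 in perinates, against 950.1, 1285 and 1204 in adults (log2 difference -1.07 ± 0.15, adjusted p = 2.49e-05). On the other side, Pax1, a transcription factor of the pharyngeal pouches from which the thymus arises, measured 2412 and 1969 in perinates, against 536, 442 and 569 in adults (log2 difference 2.09 ± 0.15, adjusted p = 1.31e-08). Chd4, a chromatin remodeller that works with Fezf2, measured 1138 and 1133 in perinates, against 821, 884 and 873 in adults, a smaller difference without overlap (log2 difference 0.40 ± 0.11, adjusted p = 0.00688). Foxn1, the master regulator of thymic epithelium, measured 2449 and 2125 in perinates, against 1691, 1561 and 1397 in adults and did not pass (log2 difference 0.56 ± 0.26, adjusted p = 0.0895, or 0.0192 with the 5 GFP- arrays alone).

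Antigen genes tied to these regulators were lower in perinatal GFP- cells. Of 19 genes known to depend on Aire 15 were lower and 0 higher, with a median of -1.51. Pcp4, a Purkinje cell protein, measured 123 and 129 in perinates, against 832, 812 and 566 in adults (log2 difference -2.53 ± 0.16, adjusted p = 4.1e-09). Ly6g, known from neutrophils, measured 359 and 273 in perinates, against 1379.5, 1422 and 966 in adults (log2 difference -1.98 ± 0.17, adjusted p = 1.31e-07). Of 14 genes linked to Fezf2 9 were lower and 0 higher (median -2.13). Hamp, the iron hormone hepcidin, measured 142 and 133 in perinates, against 1607, 2358 and 1813 in adults (log2 difference -3.79 ± 0.29, adjusted p = 3.69e-08). Grap, a signalling adaptor of lymphocytes, measured 118 and 125 in perinates, against 911, 974 and 729 in adults (log2 difference -2.83 ± 0.16, adjusted p = 9.63e-10). For Hamp and Grap both perinatal arrays were close to background and all adult arrays far above it.

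MHC and antigen processing genes shifted by less. Of 12 MHC class II genes tested 7 were lower, 2 higher and 3 did not pass (median -0.27). The class II chain H2-Aa, part of the molecule the cells were sorted on, measured 7036 and 9114 in perinates, against 9820.4, 10090.0 and 9647 in adults (log2 difference -0.30 ± 0.11, adjusted p = 0.0285). Its call was lost without perinatal array 1 (log2 difference -0.11, adjusted p = 0.446), without adult array 6 (adjusted p = 0.0503) and without adult array 7 (adjusted p = 0.0734). The class II modulators H2-Oa and H2-Ob, which restrain peptide loading, were further apart. H2-Ob measured 131 and 114 in perinates, against 609, 748 and 529 in adults (log2 difference -2.35 ± 0.18, adjusted p = 4.45e-08) and H2-Oa measured 713 and 807 in perinates, against 2082, 2455 and 2033 in adults (log2 difference -1.52 ± 0.14, adjusted p = 2.19e-07). The proteases that cut the invariant chain went in opposite directions. Ctss, the cathepsin of bone marrow-derived cells, measured 272 and 160.5 in perinates, against 511, 479 and 499 in adults (log2 difference -1.25 ± 0.18, adjusted p = 3.55e-05), and Ctsl, the cathepsin of cortical epithelium, measured 8885 and 8237 in perinates, against 2890.4, 2147 and 4048 in adults (log2 difference 1.55 ± 0.26, adjusted p = 0.000132). H2-DMa, which loads peptides, measured 2924 and 2503 in perinates, against 1617, 1920.1 and 1442 in adults (log2 difference 0.72 ± 0.15, adjusted p = 9e-04). Of 12 MHC class I and immunoproteasome genes 6 were lower, 1 higher and 5 did not pass. Psmb8, an immunoproteasome subunit, measured 276 and 222 in perinates, against 497, 522 and 541 in adults (log2 difference -1.07 ± 0.15, adjusted p = 1.73e-05), Psme1, of its activator, measured 747 and 687 in perinates, against 1204, 1346 and 1353 in adults (log2 difference -0.86 ± 0.11, adjusted p = 4.61e-06), and Erap1, which trims peptides, measured 527 and 474 in perinates, against 219, 266 and 318 in adults (log2 difference 0.92 ± 0.18, adjusted p = 0.000596). The count of class II genes with lower levels was 4 without adult array 7 and 3 with the 5 GFP- arrays alone.

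Of 12 costimulatory and coinhibitory genes 7 were lower, 1 higher and 4 did not pass (median -0.52). Cd80, a ligand of CD28 that marks mature medullary cells, measured 671 and 384 in perinates, against 2726, 2394 and 1889 in adults (log2 difference -2.19 ± 0.18, adjusted p = 7.68e-08). Cd86, its companion ligand, measured 47.7 and 47.3 in perinates, against 171, 172 and 162 in adults and was below the 40th percentile in perinates (log2 difference -1.82 ± 0.15, adjusted p = 4.93e-08). Pdcd1lg2, a ligand of the inhibitory receptor PD-1, measured 104 and 147 in perinates, against 232, 276 and 342 in adults (log2 difference -1.18 ± 0.17, adjusted p = 2.84e-05). All 3 ligands were lower on each perinatal array than on any adult array. Cd276, an inhibitory ligand, measured 324 and 267 in perinates, against 204, 196 and 184 in adults (log2 difference 0.60 ± 0.11, adjusted p = 0.00037), the member with higher levels in perinates. Of the NF-kB target and feedback genes 2 of 9 passed, both lower, a share near the 24.2% of all genes tested that were lower. They were Traf1, a receptor adaptor, with 163 and 189 in perinates, against 677, 566 and 605 in adults (log2 difference -1.81 ± 0.16, adjusted p = 1.81e-07), and Tnfrsf11b, given above. Cd80 and Cd86 are also expressed by dendritic cells and macrophages, whose listed genes were lower in perinates in 8 of 15 cases, and their part in these results was not tested.

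Chemokines were lower in 9 of 15 tested and higher in 3 (median -0.86). Ccl22, a ligand of CCR4 from mature medullary cells, measured 137 and 131 in perinates, against 486, 946 and 649 in adults (log2 difference -2.32 ± 0.30, adjusted p = 9.85e-06). Ccl5, an attractant of T cells, measured 1688 and 1460.1 in perinates, against 4033, 4445 and 4485 in adults (log2 difference -1.46 ± 0.15, adjusted p = 8.91e-07). Ccl25, the thymic ligand of CCR9, measured 1263 and 1593 in perinates, against 3192, 3383 and 3048 in adults (log2 difference -1.18 ± 0.20, adjusted p = 0.000124). The chemokine Cxcl12, the ligand of CXCR4, moved the other way by a wide margin. It measured 704 and 790.1 in perinates, against 98.4, 98.8 and 108 in adults, and the adult arrays were at about the 40th percentile (log2 difference 2.88 ± 0.13, adjusted p = 1.82e-10). Cx3cl1, fractalkine, measured 647 and 709.9 in perinates, against 486, 376 and 428 in adults (log2 difference 0.66 ± 0.14, adjusted p = 0.000704).

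Among the 15 largest differences with higher levels in perinates were transporters, receptors and matrix genes. Slc38a4, an amino acid transporter that is imprinted in the mouse, measured 1753 and 1318 in perinates, against 106, 94.9 and 159 in adults (log2 difference 3.70 ± 0.27, adjusted p = 2.11e-08). Ptprz1, a receptor tyrosine phosphatase known from glia, measured 2046 and 2318 in perinates, against 136, 191 and 223 in adults (log2 difference 3.60 ± 0.20, adjusted p = 6.89e-10). Glrb, the beta subunit of the glycine receptor, measured 509.9 and 359 in perinates, against 37.1, 36 and 34.6 in adults (log2 difference 3.58 ± 0.18, adjusted p = 4.69e-10). For each of these genes both perinatal arrays lay far above all adults, and Glrb was below the 40th percentile in adults. Glrb passed the filter on dim genes only through the 2 perinatal GFP- arrays, so it entered the test by the group where it was high. Frem2, a basement membrane protein of the Fraser complex, measured 989 and 869 in perinates, against 127, 117 and 121 in adults (log2 difference 2.93 ± 0.12, adjusted p = 6.21e-11). Susd4, a regulator of complement, measured 1308 and 1097 in perinates, against 125, 126 and 138 in adults (log2 difference 3.21 ± 0.12, adjusted p = 1.77e-11). Zfp57, a zinc finger protein that keeps methylation at imprinted loci, measured 723 and 906 in perinates, against 110.4, 125 and 137 in adults (log2 difference 2.71 ± 0.13, adjusted p = 2.14e-10). No perinatal array came near an adult one for these genes. P4ha3, a prolyl hydroxylase subunit for collagen, and Pgm5, a protein of cell adhesion sites, differed by 2.84 ± 0.27 and 2.84 ± 0.27. Vsnl1, a calcium sensor of neurons, and Adgrg2, an adhesion receptor known from the epididymis, differed by 2.75 ± 0.30 and 2.72 ± 0.23. Nt5dc2, Ccdc80, Prss16, Cxcl12 and Peg3 complete the set, at 3.00 ± 0.18, 2.68 ± 0.24, 2.81 ± 0.36, 2.88 ± 0.13 and 3.04 ± 0.15.

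Cell cycle genes were nearly all higher in perinates. Of 29 S phase genes tested 26 were higher and 0 lower (median 0.99), and of 29 genes of G2 and mitosis 27 were higher and 0 lower (median 1.28), against 22.1% of all genes higher and a median of 0.02. In the S phase list, Mcm4, a subunit of the replicative helicase, measured 745 and 594 in perinates, against 253, 212 and 259.7 in adults (log2 difference 1.47 ± 0.17, adjusted p = 2.88e-06). Rrm1, the large subunit of ribonucleotide reductase, measured 1083 and 1062 in perinates, against 346, 317 and 452 in adults (log2 difference 1.55 ± 0.19, adjusted p = 4.73e-06). Tk1, a thymidine kinase, measured 527 and 414 in perinates, against 202, 184 and 244 in adults (log2 difference 1.16 ± 0.14, adjusted p = 5.54e-06). All 3 were higher on both perinatal arrays than on any adult array. In the mitotic list, Mki67, the proliferation antigen, measured 1194 and 1157 in perinates, against 319, 323 and 423 in adults (log2 difference 1.74 ± 0.16, adjusted p = 2.22e-07). Ccna2, a cyclin of S phase and G2, measured 1276 and 1178 in perinates, against 257, 279 and 421 in adults (log2 difference 1.98 ± 0.19, adjusted p = 4.48e-07), and Foxm1, the transcription factor of late cell cycle genes, measured 517 and 481 in perinates, against 102, 139.8 and 165 in adults (log2 difference 1.91 ± 0.19, adjusted p = 4.54e-07). Cenpe, a kinetochore motor, measured 226 and 229 in perinates, against 72.6, 78.3 and 88 in adults (log2 difference 1.52 ± 0.14, adjusted p = 3.08e-07), Kif11, a spindle motor, measured 656 and 499.7 in perinates, against 152, 169 and 200.2 in adults (log2 difference 1.73 ± 0.17, adjusted p = 5.09e-07), and Nusap1, a spindle protein, measured 567 and 563 in perinates, against 174, 142 and 199 in adults (log2 difference 1.73 ± 0.17, adjusted p = 5.32e-07). No perinatal array overlapped the adults for any of these, and the adult arrays were not at 0 but showed lower signals of the same genes. Pcna, the polymerase clamp, measured 1524 and 1889 in perinates, against 1728, 1148 and 1235 in adults and did not pass, though it did without adult array 6 (log2 difference 0.51, adjusted p = 0.0136). The mitotic kinase gene Aurka did not pass either, at 239 and 221 in perinates, against 174, 210.3 and 194 in adults.

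Genes of G2 and mitosis are known to share promoter elements, the CCAAT box bound by NF-Y and the cell cycle homology region with its core TTTGAA, so the promoters of 4 of them that moved together are shown. These are the 250 bases before the RefSeq start on GRCm38.p6, 5′ to 3′, in lower case with CCAAT and TTTGAA, read on either strand (ATTGG and TTCAAA), in capitals:
Mki67 (chr7:135716380-135716629, minus strand): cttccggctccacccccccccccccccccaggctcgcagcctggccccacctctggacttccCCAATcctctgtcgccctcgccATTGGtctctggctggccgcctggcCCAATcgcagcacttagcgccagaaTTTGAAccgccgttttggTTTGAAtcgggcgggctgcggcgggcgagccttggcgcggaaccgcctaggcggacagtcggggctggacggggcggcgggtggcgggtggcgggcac
Cenpe (chr3:135212313-135212562, plus strand): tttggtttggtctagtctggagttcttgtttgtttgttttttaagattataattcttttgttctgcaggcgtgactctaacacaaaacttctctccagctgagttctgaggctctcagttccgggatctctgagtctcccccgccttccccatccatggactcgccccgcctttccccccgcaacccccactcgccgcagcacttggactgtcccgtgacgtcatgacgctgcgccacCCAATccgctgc
Kif11 (chr19:37376132-37376381, plus strand): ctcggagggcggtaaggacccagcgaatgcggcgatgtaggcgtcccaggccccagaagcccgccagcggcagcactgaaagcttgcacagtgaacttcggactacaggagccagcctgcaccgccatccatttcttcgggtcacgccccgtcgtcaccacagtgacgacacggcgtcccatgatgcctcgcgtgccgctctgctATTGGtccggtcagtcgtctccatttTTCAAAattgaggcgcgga
Nusap1 (chr2:119618048-119618297, plus strand): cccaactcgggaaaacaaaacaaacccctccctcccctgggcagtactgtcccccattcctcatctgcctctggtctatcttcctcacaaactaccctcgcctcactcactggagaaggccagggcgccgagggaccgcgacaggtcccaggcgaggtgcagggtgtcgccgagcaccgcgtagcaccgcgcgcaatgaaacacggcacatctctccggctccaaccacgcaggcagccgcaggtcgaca
Mki67 held CCAAT 3 times and TTTGAA 2 times, Kif11 held each once, Cenpe held CCAAT once, and Nusap1 held neither in this window. Over the lists, genes were counted, each with a match if any of its promoter entries of this length held one. CCAAT was found for 20 of 23 G2 and mitosis genes (87%) and 16 of 25 S phase genes (64%). The shares were 10133 of all 27025 genes with a promoter entry (37.5%) and 39.4% of those tested. TTTGAA was found for 8 of 23 (34.8%) and 3 of 25 (12%), against 18.3% of all genes with an entry and 13.1% of those tested. Both elements were found for 8 of the 23 and for 7.3% of all genes with an entry. In the promoters printed no match of CCAAT overlapped one of TTTGAA. A match is a description of letters and not a bound site.

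Cell cycle inhibitors had 5 lower, 2 higher and 7 not passed of 14 tested. Cdkn2b, an inhibitor of the G1 cyclin-dependent kinases, measured 179 and 159 in perinates, against 579.8, 478 and 488 in adults (log2 difference -1.61 ± 0.14, adjusted p = 1.79e-07). Rb1, the retinoblastoma protein that restrains entry into S phase, measured 915 and 644 in perinates, against 1499, 1709.8 and 1616 in adults (log2 difference -1.07 ± 0.12, adjusted p = 2.27e-06). Cdkn2a, known for its rise with age in many tissues, measured 107 and 123 in perinates, against 174, 163 and 148 in adults (log2 difference -0.49 ± 0.11, adjusted p = 0.00143). These 3 inhibitors were lower on both perinatal arrays than on any adult array. Gas1, a gene of growth-arrested cells, was higher in perinates and measured 678 and 660.5 in perinates, against 224, 204 and 477 in adults (log2 difference 1.26 ± 0.26, adjusted p = 0.000905).

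Imprinted genes, which are expressed from 1 parental allele and which many tissues turn down after birth, were higher in 10 of 15 tested and lower in 1, with a median of 1.35. Peg3, a zinc finger gene expressed from the paternal allele, measured 1285 and 1369 in perinates, against 161, 152 and 169 in adults (log2 difference 3.04 ± 0.15, adjusted p = 2.67e-10). Grb10, an adaptor that restrains growth factor signalling, measured 1308 and 1276 in perinates, against 186, 204 and 265 in adults (log2 difference 2.58 ± 0.14, adjusted p = 6.55e-10). Both genes were bright in perinates and dim in adults. Mest, another paternally expressed gene, measured 533 and 342 in perinates, against 79.4, 71.1 and 81.7 in adults and was below the 40th percentile in adults (log2 difference 2.47 ± 0.20, adjusted p = 5.58e-08). Plagl1, a zinc finger gene of the same imprinted network, was the member with lower levels, at 2011 and 1142 in perinates, against 3546, 3774 and 3044 in adults (log2 difference -1.18 ± 0.18, adjusted p = 3.46e-05). The fetal growth factor gene Igf2 did not pass and measured 696 and 403 in perinates, against 528, 725 and 503 in adults, so the list did not move as 1 block. Of 9 genes around the Lin28 and let-7 axis of fetal timing 5 were higher and 0 lower. Igf2bp3, an RNA-binding protein of fetal tissues, measured 162 and 153 in perinates, against 53.7, 63.3 and 41.4 in adults (log2 difference 1.60 ± 0.15, adjusted p = 3.12e-07), and Hmga2, a chromatin protein repressed by let-7, measured 268 and 205 in perinates, against 109, 101 and 98.7 in adults (log2 difference 1.19 ± 0.14, adjusted p = 2.27e-06). Mycn measured 203 and 154 in perinates, against 119.9, 88.9 and 102 in adults (log2 difference 0.78 ± 0.16, adjusted p = 0.000893), and the miRNA processing enzyme gene Dicer1 measured 749 and 795 in perinates, against 501, 572 and 625 in adults (log2 difference 0.45 ± 0.11, adjusted p = 0.00239). With a filter at the 60th percentile 2 genes of this axis were called higher. Of 9 genes of DNA methylation 4 were higher and 1, Dnmt3l, was lower, but below the 40th percentile on all 5 GFP- arrays. Uhrf1 and Dnmt1, which copy methylation at replication, measured 431 and 343 in perinates, against 146, 159 and 188 in adults and 779 and 796 in perinates, against 391, 454 and 493 in adults, in that order (1.24 ± 0.22, adjusted p = 0.000183, and 0.83 ± 0.15, adjusted p = 0.000191). Tet1, which oxidises methylcytosine, measured 1198 and 1190.3 in perinates, against 427, 728 and 679.9 in adults (log2 difference 1.00 ± 0.26, adjusted p = 0.00458). Uhrf1 stands in the S phase list as well.

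Genes of cortical thymic epithelium were higher in 7 of 14 tested and lower in 2 (median 0.43), although the sort left out the Ly51+ cells of the cortex. Psmb11, the proteasome subunit found in cortical epithelium, measured 383 and 313 in perinates, against 89, 102 and 88.9 in adults. The adult arrays were all below the 40th percentile (log2 difference 1.90 ± 0.12, adjusted p = 6.51e-09). Prss16, the thymus-specific serine protease, measured 3099 and 3286 in perinates, against 486, 409 and 471 in adults (log2 difference 2.81 ± 0.36, adjusted p = 7.51e-06). Kitl, the stem cell factor that thymocyte progenitors need, measured 398 and 346 in perinates, against 172, 155 and 126 in adults (log2 difference 1.31 ± 0.14, adjusted p = 1.37e-06). Cxcl12, given above, belongs to this list, while Ccl25, also given above, and Tbata were its lower members. Tbata, a thymic stromal protein, measured 1943 and 1707 in perinates, against 3925, 3886 and 3276 in adults (log2 difference -1.02 ± 0.21, adjusted p = 0.000853). The keratins Krt8 and Krt18, expressed by cortical cells and by mature medullary ones, measured 7532 and 5539 in perinates, against 7883, 6977 and 7881 in adults and 8160.4 and 7837 in perinates, against 8981, 8415 and 8941 in adults, in that order, and neither passed. Without perinatal array 1, Krt8 was called lower (log2 difference -0.45, adjusted p = 0.026), and with quantile normalization both were.

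**Figure D4:**
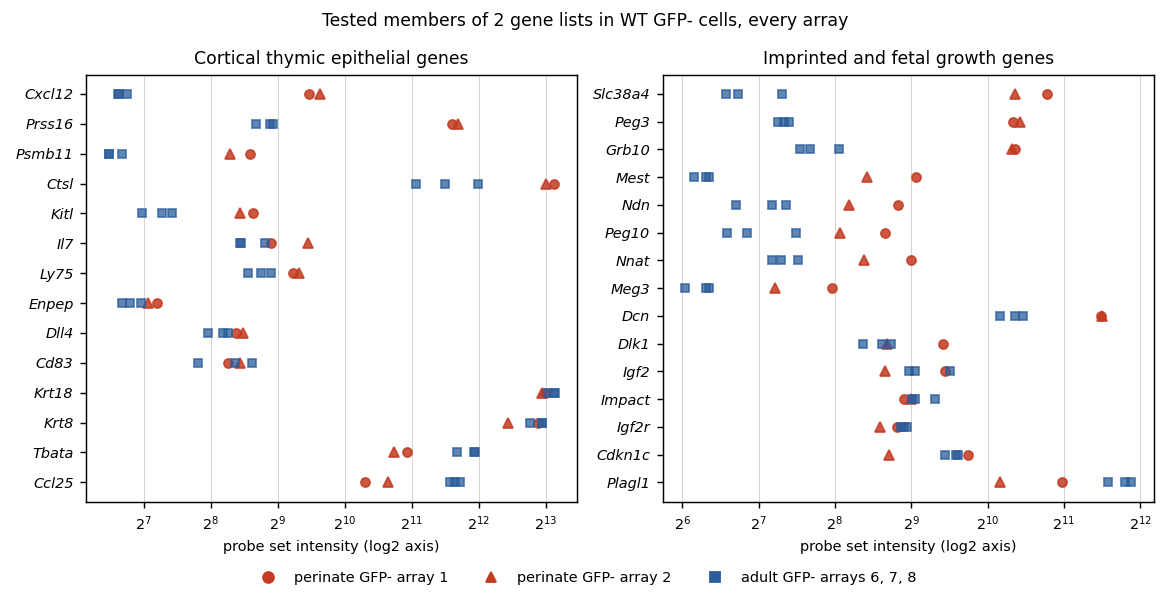
Probe set intensity (log2 axis) of the 14 tested cortical thymic epithelial genes (left) and the 15 tested imprinted and fetal growth genes (right), ordered by the difference, on each WT GFP- array. Red circles and triangles are perinatal arrays 1 and 2 and blue squares are adult arrays 6, 7 and 8. Perinatal Psmb11 values of 383 and 313 stand against 102 at most in adults, while Krt8, Igf2 and Cdkn1c overlap between the ages.

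Genes of immature and basal medullary cells were higher in 6 of 14 tested, lower in 2 and not passed in 6. Pdpn, podoplanin, which marks medullary epithelium at the border with the cortex, measured 2728 and 2099 in perinates, against 632, 429.9 and 692 in adults (log2 difference 2.06 ± 0.25, adjusted p = 5.15e-06). Trp63, the transcription factor of basal epithelium, measured 1566 and 1973 in perinates, against 793, 892 and 1041 in adults (log2 difference 0.96 ± 0.16, adjusted p = 0.000138). Itgb4, the integrin chain of hemidesmosomes, measured 1840.4 and 2055 in perinates, against 619.6, 717 and 1098 in adults (log2 difference 1.31 ± 0.22, adjusted p = 0.000144), and Lifr, a cytokine receptor subunit, measured 3298 and 3926 in perinates, against 896, 1028 and 1684 in adults (log2 difference 1.64 ± 0.26, adjusted p = 7.23e-05). The groups did not overlap for these 4 genes. Cldn3, a claudin of medullary precursors, was lower and measured 382 and 255 in perinates, against 975, 791 and 726 in adults (log2 difference -1.40 ± 0.18, adjusted p = 8.35e-06). Of 12 genes of thymic epithelial identity 3 were higher and 2 lower, a share near that of all genes. Pax9, the partner of Pax1 in the pharyngeal pouches, measured 2209 and 1952 in perinates, against 1163, 1321 and 1242 in adults (log2 difference 0.74 ± 0.15, adjusted p = 0.000523). Elf3 and Ehf, epithelial transcription factors of differentiated layers, measured 539 and 373 in perinates, against 2080.1, 1588 and 1708 in adults and 693 and 388 in perinates, against 2098, 1611 and 2014 in adults, in that order. Both were lower in perinates on every array (-1.99 ± 0.22, adjusted p = 1.28e-06, and -1.87 ± 0.21, adjusted p = 1.45e-06).

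Matrix genes were higher in 12 of 19 tested and lower in 0 (median 0.39). Fn1, fibronectin, measured 3018 and 3192 in perinates, against 758, 743 and 587 in adults (log2 difference 2.17 ± 0.15, adjusted p = 1.04e-08). Col4a1 and Col4a2, the main basement membrane collagen chains, measured 440.4 and 481 in perinates, against 228, 208 and 237 in adults and 535 and 406 in perinates, against 159.9, 177 and 194 in adults, in that order, and both passed (1.04 ± 0.12, adjusted p = 2.53e-06, and 1.40 ± 0.13, adjusted p = 1.77e-07). Lama5, a laminin chain of epithelial basement membranes, measured 698 and 680.4 in perinates, against 272, 319 and 316 in adults (log2 difference 1.19 ± 0.11, adjusted p = 2.71e-07). Each of these basement membrane and matrix genes was higher on both perinatal arrays than on any adult array. Dcn, the matrix proteoglycan decorin, which fibroblasts make in quantity and which is imprinted in placenta, measured 2875 and 2891 in perinates, against 1148, 1410.1 and 1312 in adults (log2 difference 1.17 ± 0.12, adjusted p = 1.03e-06). Fibroblast genes had 2 of 10 higher, Dcn and the collagen gene Col1a2 at 211 and 195 in perinates, against 164, 166 and 137 in adults (log2 difference 0.39 ± 0.12, adjusted p = 0.0152). Col1a2 was not called without perinatal array 1 (log2 difference 0.33, adjusted p = 0.103) or without adult array 8 (log2 difference 0.30, adjusted p = 0.0645). The fibroblast and pericyte receptor gene Pdgfrb was lower in perinates, at 117 and 129 in perinates, against 223, 319.9 and 225 in adults (log2 difference -1.04 ± 0.16, adjusted p = 3.85e-05).

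In the BMP, activin and TGF-beta pathway 10 of 19 tested genes were higher and 2 lower (median 0.48). Of the ligands, Bmp4, which early thymic epithelium needs, measured 316 and 354 in perinates, against 107, 118 and 77.3 in adults (log2 difference 1.76 ± 0.18, adjusted p = 8.77e-07), while Bmp2 was lower in perinates at 459 and 237 in perinates, against 822, 547 and 621 in adults (log2 difference -0.99 ± 0.29, adjusted p = 0.011). Bmp2 was not called without perinatal array 2 (log2 difference -0.51, adjusted p = 0.237). Of the receptors, Tgfbr2 measured 597 and 591 in perinates, against 261, 262 and 277 in adults (log2 difference 1.16 ± 0.11, adjusted p = 4.29e-07) and Bmpr1a measured 1429 and 1459 in perinates, against 764, 778 and 973 in adults (log2 difference 0.79 ± 0.14, adjusted p = 0.000218). Secreted inhibitors split: Fst, follistatin, which binds activins, was higher at 477 and 405 in perinates, against 233, 179.8 and 242 in adults (log2 difference 1.02 ± 0.19, adjusted p = 0.000323), and Grem1, gremlin, which binds BMPs, was lower at 319 and 258 in perinates, against 799, 673 and 619 in adults (log2 difference -1.27 ± 0.17, adjusted p = 1.02e-05). Ligands and inhibitors thus each held a member with higher and a member with lower levels.

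Wnt pathway genes were higher in 8 of 24 tested, lower in 3 and not passed in 13. Fzd2, a Wnt receptor, measured 612 and 427 in perinates, against 157, 133 and 199.8 in adults (log2 difference 1.67 ± 0.18, adjusted p = 9.6e-07). Lgr4, the receptor for R-spondins, measured 1257 and 1538 in perinates, against 580.3, 688 and 768 in adults (log2 difference 1.04 ± 0.18, adjusted p = 0.000147), and Kremen2, a receptor for Dickkopf inhibitors, measured 486 and 443 in perinates, against 200.4, 198 and 205 in adults (log2 difference 1.21 ± 0.11, adjusted p = 3.1e-07). These receptors were separated by age without overlap. Wnt4, a ligand made by thymic epithelium, measured 586 and 592 in perinates, against 363, 418 and 336 in adults (log2 difference 0.67 ± 0.14, adjusted p = 0.00075). Fzd6, a further Wnt receptor, was lower at 678 and 696 in perinates, against 907, 927 and 947 in adults (log2 difference -0.43 ± 0.10, adjusted p = 0.00261). With the 5 GFP- arrays alone in the fit 5 Wnt pathway genes were called higher. Of 15 Notch pathway genes 3 were higher, 5 lower and 7 not passed, against 22.1% higher and 24.2% lower over all genes tested. The ligand gene Jag2 measured 1110.4 and 1363 in perinates, against 225, 273 and 408 in adults (log2 difference 2.07 ± 0.25, adjusted p = 3.45e-06) and the ligand gene Dll1 measured 502 and 294 in perinates, against 169, 142 and 165 in adults (log2 difference 1.28 ± 0.19, adjusted p = 3.44e-05). Hey1, a Notch target, was higher at 1104 and 1488 in perinates, against 540.4, 340.4 and 522 in adults (log2 difference 1.49 ± 0.24, adjusted p = 8.06e-05), whereas Heyl, a target of the same family, was lower at 230.1 and 294 in perinates, against 408, 492 and 480.5 in adults (log2 difference -0.82 ± 0.14, adjusted p = 0.000134). Targets of the pathway thus stood on both sides. Rbpj, the DNA-binding mediator of Notch, measured 513 and 447 in perinates, against 960.0, 901 and 850.2 in adults (log2 difference -0.92 ± 0.10, adjusted p = 1.13e-06).

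Several lists that report on handling or physiology stayed near or under the share of all genes. Of 18 immediate-early and dissociation stress genes 2 were higher and 0 lower. Fos, an immediate-early transcription factor, measured 2857 and 2187 in perinates, against 2046, 1559 and 2012 in adults and did not pass (log2 difference 0.43 ± 0.38, adjusted p = 0.377). Of 15 clock genes 2 were higher and 2 lower. Bhlhe41, a clock repressor, measured 210.1 and 291 in perinates, against 811, 635 and 819 in adults (log2 difference -1.60 ± 0.29, adjusted p = 0.000243). The hour of each sort is not stated in the labels. Of 13 glycolysis and hypoxia genes 2 were higher and 2 lower. Pdk1, which turns pyruvate away from mitochondria, measured 359.6 and 308 in perinates, against 129.9, 156 and 172 in adults (log2 difference 1.14 ± 0.16, adjusted p = 2.28e-05), and Pfkp, a phosphofructokinase, measured 197 and 174 in perinates, against 398, 409.6 and 407 in adults (log2 difference -1.13 ± 0.16, adjusted p = 2.82e-05). Of 11 glucocorticoid response genes 2 were higher and 3 lower, among them Sgk1 at 336 and 295 in perinates, against 791, 560.4 and 583 in adults (log2 difference -1.02 ± 0.19, adjusted p = 0.000314). Of 18 interferon response genes 4 were higher and 3 lower. Iigp1, an immunity-related GTPase, measured 1477 and 928 in perinates, against 535, 436 and 695 in adults (log2 difference 1.10 ± 0.22, adjusted p = 0.000697), and Usp18, an inhibitor of interferon signalling, measured 1269 and 1089 in perinates, against 2335, 2792 and 2892 in adults (log2 difference -1.18 ± 0.24, adjusted p = 0.000754). Without perinatal array 1, 1 interferon response gene was called higher, and without perinatal array 2, 1 was called lower and also 1 glucocorticoid response gene was called lower. Without adult array 7, 5 interferon response genes were called lower.

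Heat shock genes were lower in 7 of 10 tested and higher in 0 (median -1.12). Hsph1, a large chaperone, measured 256 and 792 in perinates, against 3047, 1606 and 2458 in adults (log2 difference -2.35 ± 0.58, adjusted p = 0.00339, and log2 difference -1.53, adjusted p = 0.0885 without perinatal array 1). Hspa1a, the inducible HSP70 gene, measured 1885 and 6169 in perinates, against 8985, 6530.2 and 8817 in adults and did not pass (log2 difference -1.24 ± 0.78, adjusted p = 0.209). Perinatal array 1 stood lowest for both, and array 2 was below all adults too. Without perinatal array 1 the count of heat shock genes called lower was 1, while the log2 differences of Hsp90aa1, Dnajb1 and Hspd1, further chaperone genes, were -0.74, -1.12 and -0.87 without it, against -0.85 ± 0.23, -1.40 ± 0.37 and -1.20 ± 0.31 with it. Cholesterol synthesis genes were higher in 2 of 13 tested and lower in 0 (median 0.07). Srebf2, the regulator of sterol synthesis, measured 1335 and 965 in perinates, against 877, 868 and 868 in adults (log2 difference 0.38 ± 0.13, adjusted p = 0.0225), and lost its call without perinatal array 1 (log2 difference 0.15, adjusted p = 0.406).

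The same ages can be compared in wild-type GFP+ cells, with 3 arrays each. There 3067 genes (22.2%) differed, 1179 (8.52%) higher in perinates and 1888 (13.6%) lower. Adult GFP- and GFP+ arrays of the same number deviated together from their group means (r = 0.503, 0.442 and 0.188 across genes), so the age differences of GFP- and GFP+ cells are not independent, and their overlap is not given as a result. The difference of the age effects, GFP- minus GFP+, was tested for each gene, with no term for shared array numbers. It passed for 2761 genes (19.9%), 1283 (9.27%) higher and 1478 (10.7%) lower.

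Tuft cell genes showed a larger age effect in GFP- than in GFP+ cells by this test. The difference passed for 20 of 22 with a lower age effect in GFP- cells and for 0 with a higher one, and 2 of the 22 were lower in perinatal GFP+ cells (median -0.09). Trpm5 measured 134 ± 14.1 in perinatal and 116 ± 7.01 in adult GFP+ cells (SD, n = 3 each), and its age difference was 0.20 there against -2.72 ± 0.24 in GFP- cells, a difference of -2.92 ± 0.33 (adjusted p = 1.73e-05). The 40th percentile of the WT GFP+ arrays lay at 109 to 112.1, so Trpm5 was near it at both ages. Gng13 and Ltc4s measured 193 and 98.3 in perinatal GFP+ cells, against 199 and 158 in adult ones (means). Levels this low leave little room for a fall, so the sizes of these differences depend in part on them. For cornified genes the difference passed for 16 of 23 and for microfold genes for 6 of 12, all with the lower age effect in GFP- cells. Secretory genes gave 12 of 24. The lysozyme gene Lyz2 measured 3314 ± 379 in perinatal and 5193 ± 128 in adult GFP+ cells (SD, n = 3 each), with a difference of -3.81 ± 0.15 (adjusted p = 1.42e-10). Gut and liver genes stood between, with 18 of 24 lower in GFP+ cells too (median -0.96) and the difference passed for 11 lower and 1 higher. Aire showed an age difference of -0.09 in GFP+ cells, at 4773 ± 629 in perinatal and 5097 ± 971 in adult GFP+ cells (SD, n = 3 each), and the difference of -1.03 ± 0.31 passed (adjusted p = 0.0255). Fezf2 measured 2764 ± 590.0 in perinatal and 4071 ± 380.4 in adult GFP+ cells (SD, n = 3 each), with a difference of -2.14 ± 0.24 (adjusted p = 1.41e-05). Genes linked to Fezf2 were lower in perinatal GFP+ cells too, in 12 of 14 (median -0.92), and the difference passed for 8 lower and 0 higher. Aire-induced genes were lower there in 8 of 19 (median -0.44), and the difference passed for 10 lower and 0 higher. Whether the levels of Fezf2 and Aire bear on these genes was not tested.

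Mitotic genes had 24 of 29 past the test of the difference, all with the higher age effect in GFP- cells, and 6 of 29 were higher in perinatal GFP+ cells (median 0.35). Mki67 measured 1489 ± 223 in perinatal and 1166 ± 157 in adult GFP+ cells (SD, n = 3 each), and the difference was 1.39 ± 0.21 (adjusted p = 0.000258). For S phase genes the difference passed for 14 of 29, and 10 of 29 were higher in perinatal GFP+ cells. Of the cortical genes 7 of 14 passed the difference with a higher effect in GFP- cells, while 1 was higher and 5 were lower in perinatal GFP+ cells. Cxcl12 was below the 40th percentile in GFP+ cells of both ages and near it in adult GFP- cells, so the size of its difference depends on that background. It measured 90.2 ± 8.47 in perinatal and 82.2 ± 3.42 in adult GFP+ cells (SD, n = 3 each) (difference 2.75 ± 0.17, adjusted p = 8.68e-08). Imprinted genes were in part higher in perinates in both kinds of cells, with 8 of 15 higher in perinatal GFP+ cells and the difference passed for 6 higher and 2 lower. Heat shock genes had 5 of 10 lower in perinatal GFP+ cells (median -0.99) and 0 past the test of the difference. Cholesterol synthesis genes ran the other way round, with 11 of 13 higher in perinatal GFP+ cells (median 0.86), 2 in GFP- cells and the difference passed for 7, all with the lower age effect in GFP- cells.

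**Figure D5:**
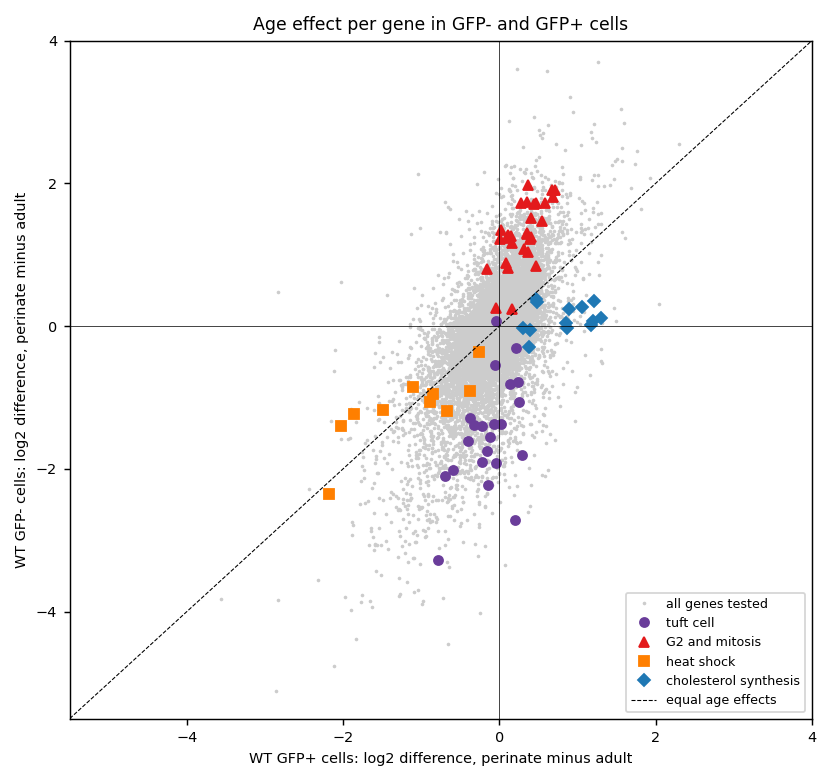
Age difference (log2, perinate minus adult) of each of 13842 genes in WT GFP- cells (vertical axis) against that in WT GFP+ cells (horizontal axis), with a dashed line where both are equal. Grey points are all genes tested, and coloured symbols are the tested members of 4 lists. Tuft cell genes (purple circles, median -1.48 in GFP- and -0.09 in GFP+ cells) and mitotic genes (red triangles, 1.28 and 0.35) spread along the vertical axis, heat shock genes (orange squares, -1.12 and -0.99) near the dashed line, and cholesterol synthesis genes (blue diamonds, 0.07 and 0.86) along the horizontal axis.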

How the data were processed

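RNA of 17 sorted samples was measured on Affymetrix Mouse Gene 1.0 ST arrays, of which 5 are wild-type GFP- samples. The deposited values are linear intensities per probe set, from 6.358 to 20106; the submitters' processing notes name RMA and Affymetrix Power Tools, without a version. Their log2 was taken as it stood. Of 24922 probe sets 21425 had 1 gene symbol, 1399 several and 2098 none, and only the first kind was used, with the brightest probe set per gene (19752 genes). Testing was limited to the 13842 genes that exceeded an array's 40th percentile in 2 or more of the 17 samples.

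One mean per group (6 groups, 17 arrays) was estimated by limma 3.58.1 under R 4.3.3, with eBayes moderation. P-values are two-sided and adjusted by Benjamini-Hochberg over all genes tested, with a threshold of 0.05. Contrasts were perinate minus adult in GFP- cells, the same in GFP+ cells, and their difference. The median standard error was 0.145 (0.195 for the difference). In simulated data with 13842 genes, 67, 67 and 66 of them were changed by 1.5-fold, 2-fold and 4-fold. The GFP- age contrast recovered 43.3%, 89.6% and 97% of these, with 9 calls among unchanged genes. In the real data 46.3% of genes were called, a far larger share than was changed there. The simulated recovery and the 9 calls therefore do not carry over to the real counts. The number of arrays limits the precision.

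Gene lists were described by counts and medians. The comparison, the lists and the rule for named genes were chosen with earlier results of these data known. The rule took the 15 largest non-overlapping differences each way, up to 4 members per list and direction by p, the 8 largest differences from GFP+ cells each way and a set of marker genes. Kif11, Nusap1, Mucl2, Bpifa1, Gp2, Rgs13, Pcna, Aurka, Igf2, Krt8, Krt18, Hspa1a, Gnat3, Cd3e and Fos were named outside it, after their values were seen. Deviations from the group means correlated at 0.503, 0.442 and 0.188 across genes for adult GFP- and GFP+ arrays 6, 7 and 8. Equal replicate numbers of these arrays were taken as pairs only in the replicate block alternative. The main fit, which gave all differences above, held no term for pairs. Perinatal and adult GFP- arrays share no number. Promoters came from RefSeq on GRCm38.p6. Alternatives are given in the closing section.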

Additional observations from a re-analysis of the deposited data

Results flagged for a closer look

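The age effect differed between GFP- and GFP+ cells, by limma's test of the difference itself (adjusted p under 0.05), for 160 of the 255 genes named by the rule or added, 96 with a lower and 64 with a higher effect in GFP- cells. The 22 genes given here are the 8 largest differences each way and the marker genes among them, as log2 age effect in GFP- minus that in GFP+ cells.

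The lower side holds genes of host defence, of tuft and goblet cells and of keratinocytes. It was led by Lyz2 at -3.81, Ccl11 at -3.77 and Il12rb2, an interleukin receptor subunit, at -3.42. Lyz1 stood at -3.09, the dehydrogenase gene Sdr16c6 at -2.97, Clca1 at -2.95, Cyp2b19 at -2.92 and Trpm5 at -2.92. Il12rb2 measured 94.1 and 80.3 in perinates, against 985, 909.5 and 781 in adults, with both perinatal GFP- arrays below the 40th percentile, and 424 ± 76.8 in perinatal and 401 ± 25.1 in adult GFP+ cells (SD, n = 3 each). Sdr16c6 was below the 40th percentile in perinatal GFP- cells and in GFP+ cells of both ages, and bright only in adult GFP- cells, so the size of its difference depends on that background. Trpm5 was near that percentile in GFP+ cells of both ages. The chemokine Ccl11 measured 349 ± 33 in perinatal and 419 ± 80.6 in adult GFP+ cells (SD, n = 3 each).

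On the higher side, Ptprz1 stood at 3.37, Scgb2b27 at 3.32, Nqo1 at 3.18, Glrb at 2.97, Cxcl12 at 2.75, Dsc3 at 2.65, Frem2 at 2.49 and Slc38a4 at 2.44. Glrb was below the 40th percentile in adult GFP- cells and in GFP+ cells of both ages, and Cxcl12 was below or near it in the same groups. Both were bright only in perinatal GFP- cells, so the sizes of their differences depend on that background. Glrb passed the filter on dim genes only through the 2 perinatal GFP- arrays, the group where it was high. Nqo1, a quinone reductase, measured 1186 and 1154 in perinates, against 239, 270.1 and 291 in adults, and 252 ± 77.7 in perinatal and 499 ± 22.5 in adult GFP+ cells (SD, n = 3 each), so its age difference was higher in perinatal GFP- cells and lower in perinatal GFP+ cells. The secretoglobin gene Scgb2b27 measured 291 and 15.2 in perinates, against 34.4, 49 and 64.1 in adults. Its age difference in GFP- cells did not pass (log2 difference 0.48, adjusted p = 0.613). Perinatal array 1 alone was bright for it, and without that array its log2 difference in GFP- cells was -1.65. Dsc3, a desmosomal cadherin, measured 2426 and 2479 in perinates, against 1513, 1343 and 1997 in adults, and 222 ± 76.5 in perinatal and 873 ± 38.6 in adult GFP+ cells (SD, n = 3 each). Its log2 difference in GFP- cells was 0.62 (adjusted p = 0.0346). That call was lost without adult array 6 (adjusted p = 0.0795) and without adult array 7 (adjusted p = 0.121). The log2 difference was 0.637 without perinatal array 1 and 0.605 without perinatal array 2.

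Of the marker genes, Aire differed by -1.03, G6pc2 by -2.01, Fezf2 by -2.14, Cd80 by -2.16, Psmb11 by 1.76 and Mki67 by 1.39.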

How the results depend on the processing

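The count of 6412 genes for age in GFP- cells and that of 2761 for the difference from GFP+ cells stayed within 1.5 times under every alternative run. The first ranged from 5038 (only the 5 GFP- arrays) to 6983 (no filter), and leaving out each array in turn gave 5327 to 6135. The second ranged over 2265 to 2831 with arrays left out. The random block of adult replicate numbers (replicate block, correlation 0.41) gave 6392 and 3428 genes, and of the named genes it changed the call of Krt14 alone (adjusted p 0.048). The share of called genes that were higher in perinates was 47.8%, 42.1% without perinatal array 1 and 52.3% without array 2 (for the difference 46.5%, 36.7% and 55.9%). The median over all genes stayed between -0.01 and 0.05. Of 240 named genes that passed, 199 kept call and direction throughout, 41 lost the call under at least 1 alternative and 0 changed sign; of 15 that had not passed, 8 were called under at least 1 alternative (Foxn1, Hspa1a, Krt8, Krt14, Krt18, Mucl2, Pcna and Scgb2b27). Signs changed for genes that had not passed, as 1 array was left out: Gnat3 ranged over -1.22 to 0.14, Igf2 over -0.52 to 0.27 (0.04 without adult array 7), Krt5 over -0.008 to 0.35, Mucl2 over -3.42 to 0.41 and Scgb2b27 over -1.65 (without perinatal array 1) to 2.61; the cause was not tested. With a filter at the 60th percentile, which tests fewer genes, 3 ionocyte, 1 thymocyte, 4 dendritic cell and macrophage and 2 endothelial genes were called lower. With array weights 3 heat shock genes and 1 interferon response gene were called lower. Levels near background limit the folds of dim genes.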
